A study of Mus musculus with 24 samples.

Results

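The genes described here are 45 genes of the cell cycle and DNA replication, chosen by name out of the 45468 genes in each deposited count table. All 45 were found by symbol as 1 row each, and all 45 passed the filter on low counts. Their levels were compared in endothelial cells, the cells that line blood vessels, taken from the brains of mice at 4 stages. The mice were with or without induced deletion of Sox17, the gene of a transcription factor. The stages were embryonic day E15.5, postnatal day 5 (P5), postnatal day 9 (P9) and adult. Polyadenylated RNA was sequenced in 24 libraries, 3 independent biological replicates for each genotype at each stage.

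All animals carried 2 floxed copies of Sox17 (Sox17flox/flox), and both genotypes are described as tamoxifen-treated. The animals called Sox17iECKO also carried Cdh5(PAC)-Cre-ERT2, a recombinase driven by the promoter of an endothelial cadherin gene and activated by tamoxifen. The animals called wt lacked it, so the loss of Sox17 and the presence of the active recombinase cannot be told apart. Embryos were exposed through the mother, who received 2 doses of 1 mg at 11.5 and 13.5 days after conception. Pups of the P5 and P9 groups received 100 µg at postnatal day 1. Adults received 4 doses of 1.5 mg, given every other day from the age of 6 weeks, and were collected 1 week after treatment. Brains of E15.5 and P5 were dissociated with a kit for neural tissue and those of P9 and adults with a kit for adult brain, so the kit and the step from P5 to P9 cannot be told apart. The wt and Sox17iECKO animals of a stage shared the same kit. Cells carrying CD45 were removed and cells carrying CD31 were then captured, which enriches endothelial cells without making them pure.

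A dividing cell first licenses its replication origins by loading the MCM helicase, then copies its DNA in S phase and separates the copies in mitosis. Cyclins bound to cyclin-dependent kinases drive these steps, and E2F factors switch on the S phase genes while B-MYB and FOXM1 act later on the mitotic genes. Brain endothelial cells divide while vessels grow into the developing brain and are largely quiescent in the adult.

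Depth ranged from 12301779 to 19830600 counts per library. Levels below are in CPM, counts set relative to the library total after TMM scaling, which sets the bulk of genes level between libraries, unless another scale is named. In Sox17iECKO, Sox17 itself stood at 10.2% of the wt level at E15.5, 6.05% at P5, 7.07% at P9 and 17.8% in adults. At P9 the 3 wt libraries had 354, 335 and 311 CPM of Sox17 and the 3 Sox17iECKO libraries had 18.9, 23.9 and 27.2 CPM (log2 fold change -3.82 ± 0.28 SE, edgeR adjusted p = 4.5e-10). All 12 genes of an endothelial identity list were present in every group, with a summed level of 4975 to 6283 CPM at E15.5 and 11912 CPM or more at the later stages. The fractions were mixed: oligodendrocyte markers summed to 16193 to 24513 CPM in adults against 1016 to 1870 CPM at P9. In bulk RNA of this kind, fewer cells of a type and less RNA per cell cannot be told apart.

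The promoters of these genes hold short motifs known from cell cycle control, and 5 are shown to let these be seen in place, for genes of mitotic entry, mitotic exit and origin licensing. RefSeq promoter windows of 300 bases, 250 before the start site and 50 from it on (build GRCm38.p6), were found for 38 of the 45 genes. Both strands were searched for the cell cycle homology region (CHR; TTTGAA or TTCGAA), a motif of mitotic genes bound by the complexes that contain B-MYB and FOXM1. The search also covered E2F sites (TTTCCCGC, TTTCGCGC, TTTGCCGC or TTTGGCGC) and the CCAAT box, the site of NF-Y. Matches are in capitals, and each window reads 5′ to 3′ along its gene. Positions give the leftmost letter of a match, with the start site as 1 and no position 0. Ccnb1 lies on the minus strand with its window at chr13:100786437-100786736, Ccnb2 on the minus strand at chr9:70421505-70421804, and Plk1 on the plus strand at chr7:122159185-122159484. Cdc20 lies on the minus strand at chr4:118437294-118437593 and Mcm5 on the plus strand at chr8:75109259-75109558.
Ccnb1: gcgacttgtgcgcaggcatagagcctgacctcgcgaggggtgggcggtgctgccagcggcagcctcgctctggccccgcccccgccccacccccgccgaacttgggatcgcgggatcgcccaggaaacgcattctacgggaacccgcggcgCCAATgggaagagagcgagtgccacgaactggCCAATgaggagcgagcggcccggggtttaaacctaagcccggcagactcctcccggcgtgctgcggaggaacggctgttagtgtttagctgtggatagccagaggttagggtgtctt
Ccnb2: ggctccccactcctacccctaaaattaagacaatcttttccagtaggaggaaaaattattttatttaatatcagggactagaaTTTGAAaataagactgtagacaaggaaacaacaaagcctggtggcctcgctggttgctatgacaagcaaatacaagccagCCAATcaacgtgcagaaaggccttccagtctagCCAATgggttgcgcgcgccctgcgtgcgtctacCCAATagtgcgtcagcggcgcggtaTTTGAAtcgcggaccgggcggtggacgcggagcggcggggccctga
Plk1: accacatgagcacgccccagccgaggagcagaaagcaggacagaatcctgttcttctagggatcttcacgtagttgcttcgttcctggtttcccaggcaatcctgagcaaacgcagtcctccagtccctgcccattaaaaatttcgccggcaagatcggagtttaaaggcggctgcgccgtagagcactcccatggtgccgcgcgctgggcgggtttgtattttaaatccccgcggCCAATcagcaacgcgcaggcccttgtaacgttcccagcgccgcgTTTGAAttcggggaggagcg
Cdc20: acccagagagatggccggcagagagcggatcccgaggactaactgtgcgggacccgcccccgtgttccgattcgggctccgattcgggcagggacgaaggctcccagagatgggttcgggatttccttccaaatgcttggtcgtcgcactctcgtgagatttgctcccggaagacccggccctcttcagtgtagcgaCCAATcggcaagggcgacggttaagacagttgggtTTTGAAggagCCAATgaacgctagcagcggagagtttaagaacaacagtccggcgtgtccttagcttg
Mcm5: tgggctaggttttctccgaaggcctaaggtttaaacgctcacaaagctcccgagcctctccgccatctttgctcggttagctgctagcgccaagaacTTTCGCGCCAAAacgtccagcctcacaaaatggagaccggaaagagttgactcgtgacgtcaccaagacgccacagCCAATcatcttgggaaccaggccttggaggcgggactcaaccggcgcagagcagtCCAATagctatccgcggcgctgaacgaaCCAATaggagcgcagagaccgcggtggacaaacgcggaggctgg
The windows of Ccnb2, Plk1 and Cdc20 each held a CHR and at least 1 CCAAT box, and that of Ccnb1 held CCAAT boxes at -99 and -67 and no CHR. In Ccnb2 the CHR lay at -167 and 5 and CCAAT at -87, -54 and -21. In Plk1 CCAAT lay at -14 and the CHR at 31, and in Cdc20 the CHR at -18 lay between CCAAT boxes at -53 and -8. Mcm5 held a pair of overlapping E2F matches at -153 and, on the reverse strand, -149, and CCAAT at -77, -22 and 7.

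Across the 38 genes with a window, 18 (47.4%) held a CHR, against 21.7% of the 27025 genes with a window. An E2F match was present in 9 (23.7%), against 2.6% of all, and CCAAT in 29 (76.3%), against 41.1%. All 18 genes with a CHR also held CCAAT (47.4%, against 9.65% of all). By role, a CHR was found in 4 of 5 mitotic kinase and checkpoint genes, 4 of 6 spindle genes, both partners of the anaphase-promoting complex, and both Mki67 and Top2a. E2F matches were found in 6 of 9 licensing and fork genes, which held a CHR in 3. Such matches describe the letters in these windows, and no test was made of them.

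**Figure D1:**
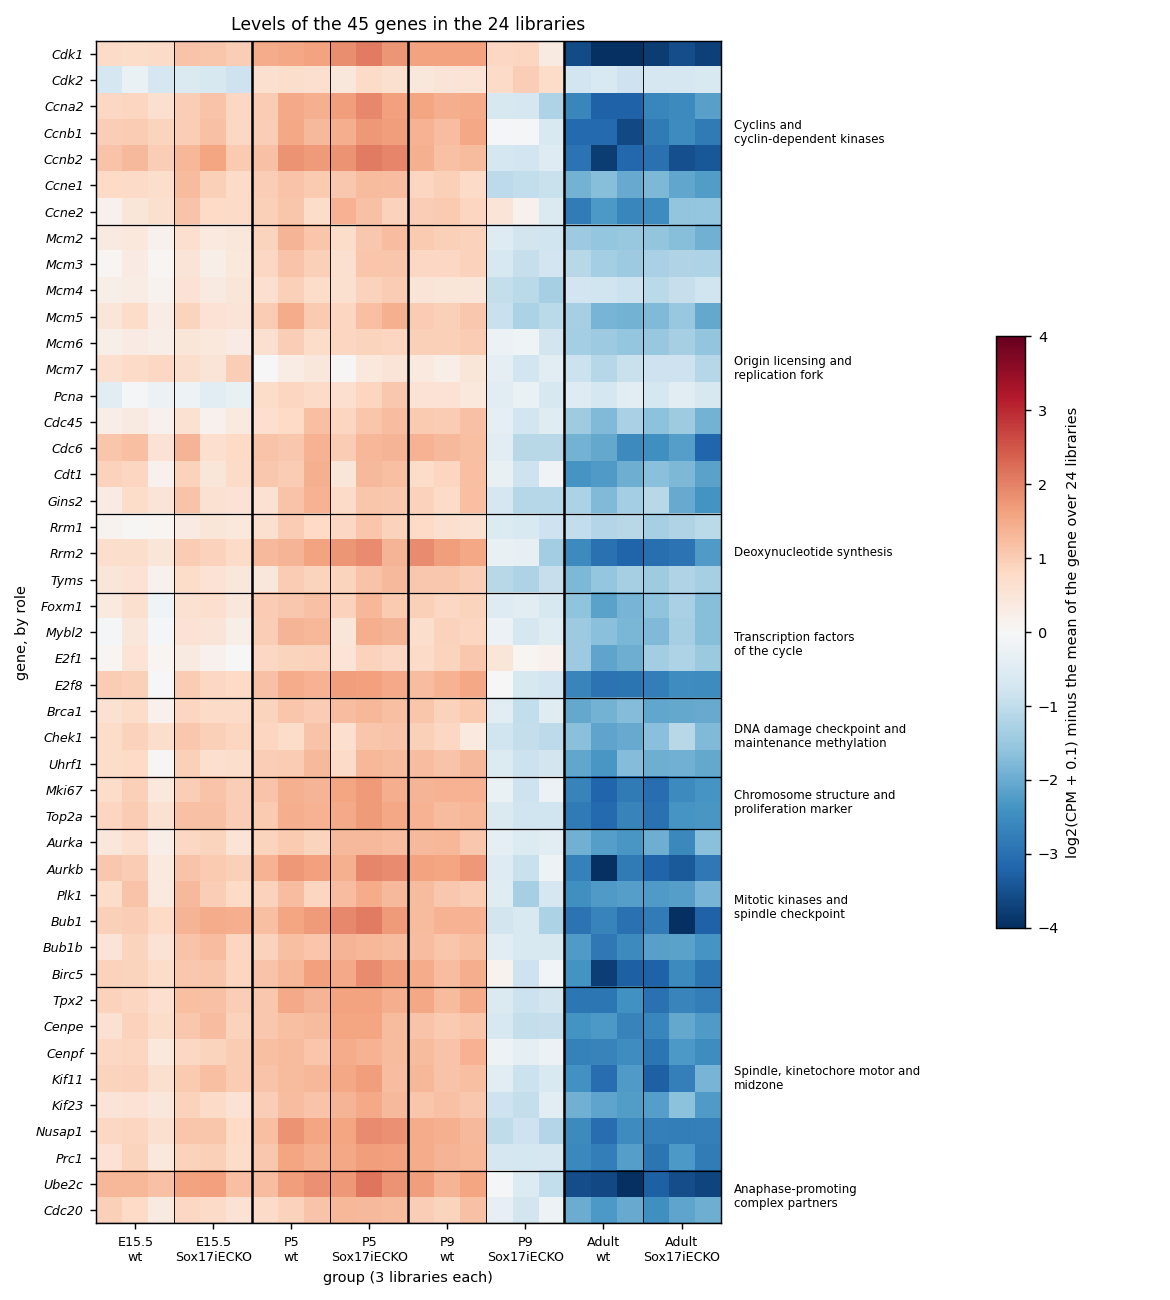
Level of each of the 45 genes (rows, grouped by role) in each of the 24 libraries (columns), as log2 CPM minus the mean of that gene over all libraries. Red cells are above and blue cells below that mean: 44 genes are bluer or paler in the P9 Sox17iECKO than in the P9 wt libraries, and Cdk2 is not.

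At P9 nearly the whole set was lower in Sox17iECKO: 44 of the 45 genes fell and 1, Cdk2, rose. The summed level of the 45 genes was 2681, 2554 and 2640 CPM in the wt libraries and 996, 901 and 865 CPM in the Sox17iECKO libraries. The median log2 fold change was -1.73, from -2.40 for Nusap1 to 0.32 for Cdk2, beside a median of 0.02 over all 17159 genes tested. Calls were made with edgeR's quasi-likelihood test at a Benjamini-Hochberg adjusted p under 0.05, and the members' adjusted p-values ran from 4.1e-11 to 0.03. At this stage 14.6% of all genes tested were called lower and 13.5% higher. For the same 44 genes every Sox17iECKO library lay below every wt library, which held for 21.7% of all genes. For Cdk2 every Sox17iECKO library lay above, as for 19% of all genes.

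The genes that drive entry into S phase and mitosis came down together except for Cdk2. Of the 7 cyclins and cyclin-dependent kinases, 6 fell. Ccne1, the E-type cyclin that acts with Cdk2 at the start of S phase, stood at 11.4, 12.2 and 10.6 CPM in wt and at 2.94, 3.1 and 3.28 CPM in Sox17iECKO. Ccne2, its close relative, stood at 9.62, 9.91 and 8.71 CPM in wt and at 6.9, 5.41 and 3.17 CPM in Sox17iECKO. Ccna2, the cyclin of S phase and G2, stood at 62.5, 57.9 and 58.3 CPM in wt and at 13.4, 13.2 and 8.92 CPM in Sox17iECKO. All 3 wt libraries were above all 3 Sox17iECKO libraries for each of these cyclins, with the narrowest gap for Ccne2. The log2 fold changes were -1.83 ± 0.16 for Ccne1 (edgeR adjusted p = 5.2e-09), -0.87 ± 0.24 for Ccne2 (adjusted p = 0.0077) and -2.32 ± 0.17 for Ccna2 (adjusted p = 4.2e-10). Without the third Sox17iECKO library, the lowest for Ccne2, that gene's adjusted p was 0.051.

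Among the mitotic partners, Ccnb1, the cyclin whose complex with Cdk1 starts mitosis, stood at 30.0, 26.4 and 32.8 CPM in wt and at 10.8, 10.8 and 7.37 CPM in Sox17iECKO. Cdk1 stood at 89.5, 89.1 and 88.5 CPM in wt and at 51.6, 52.7 and 37.6 CPM in Sox17iECKO. Neither gene's groups overlapped, but Cdk1 kept 53.1% of its wt level (log2 fold change -0.91 ± 0.11, edgeR adjusted p = 1.8e-06) and Ccnb1 32.6% (-1.61 ± 0.16, adjusted p = 7.9e-08). Ccnb2, the other B-type cyclin, fell by 1.94 on the log2 scale. Cdk2 stood at 74.8, 79.0 and 81.0 CPM in wt and at 93.0, 108 and 92.3 CPM in Sox17iECKO. That was a rise of 0.32 ± 0.11 on the log2 scale (edgeR adjusted p = 0.03). The rise did not pass the threshold when libraries were scaled by total counts or by endothelial identity genes.

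**Figure D2:**
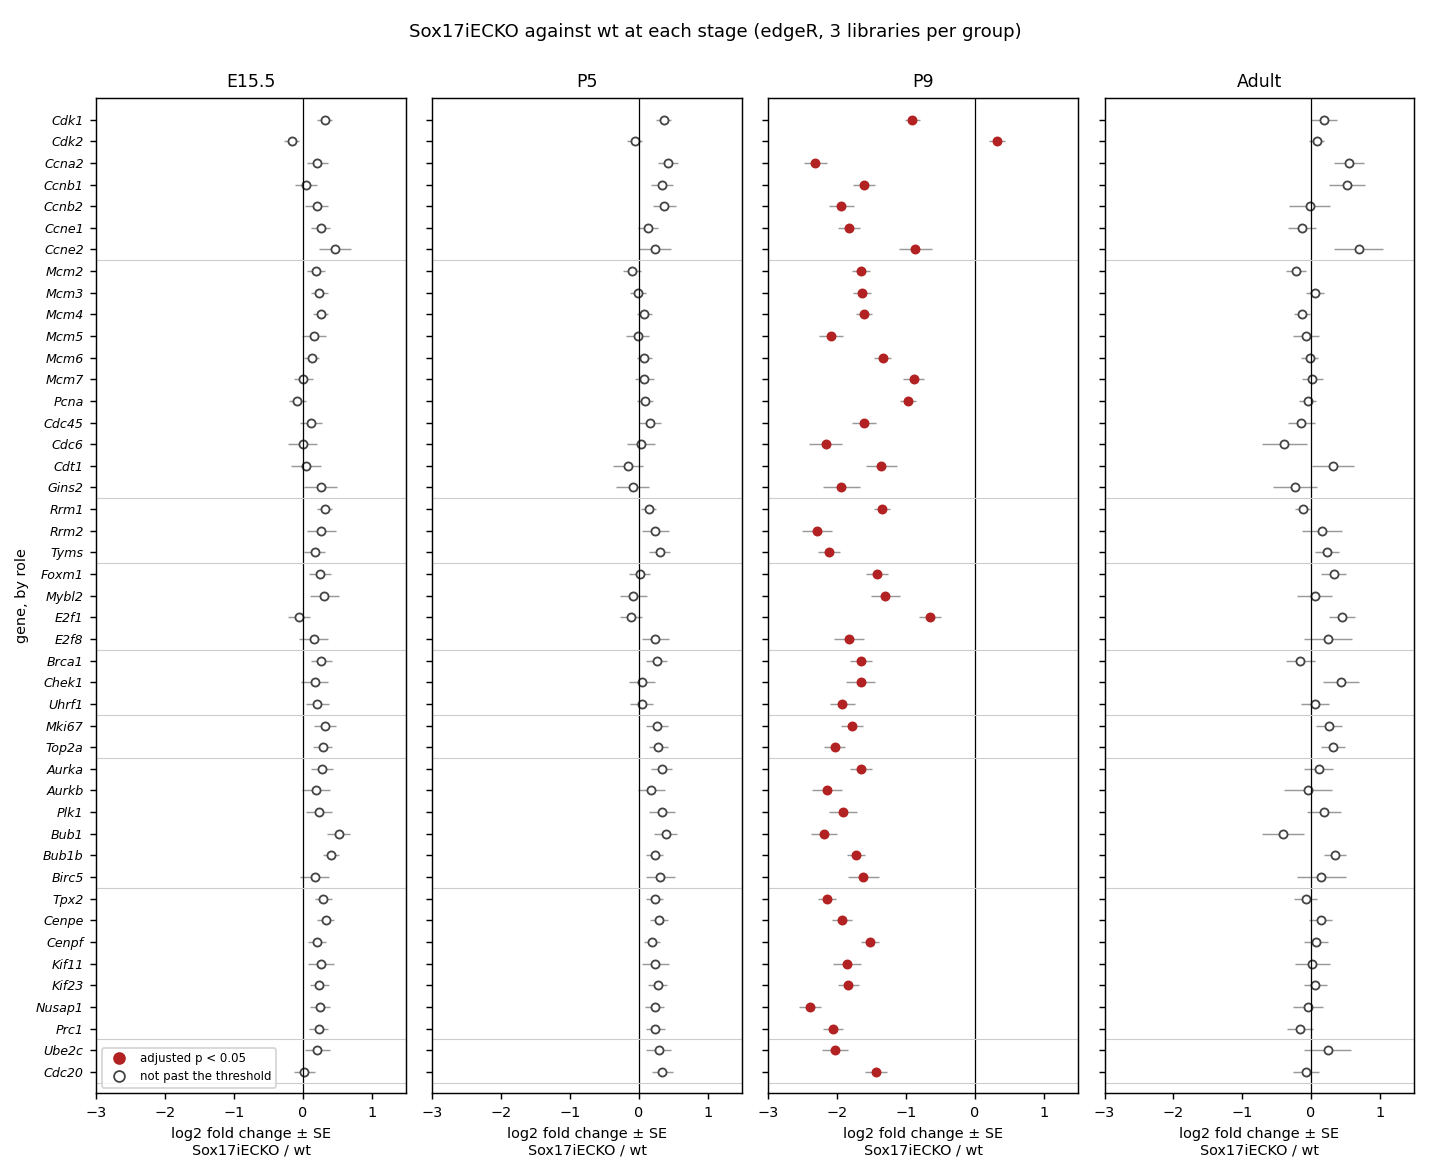
Log2 fold change of Sox17iECKO over wt (x axis, with SE as bars) for each of the 45 genes (y axis, by role) at each stage, with filled points where the adjusted p was under 0.05. At P9 44 points lie left of 0 and only Cdk2 lies right of it, and at E15.5, P5 and in adults all points are open.

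All 11 genes of origin licensing and the replication fork fell, with a median of -1.61 and a range of -2.17 to -0.89. Mcm2, a subunit of the hexameric helicase that unwinds DNA at the fork, stood at 103, 96.6 and 95.5 CPM in wt and at 35, 30.3 and 28.6 CPM in Sox17iECKO. Mcm5, another subunit, stood at 81.0, 77.6 and 85.3 CPM in wt and at 21.5, 16.6 and 19.0 CPM in Sox17iECKO. Cdc6, which loads the helicase onto origins, stood at 17.3, 16.2 and 15.2 CPM in wt and at 4.8, 2.98 and 2.94 CPM in Sox17iECKO. The wt libraries lay close together for these genes, and every Sox17iECKO library was far below them. Fitted levels in Sox17iECKO were 31.9% of wt for Mcm2, 23.5% for Mcm5 and 22.2% for Cdc6, with log2 fold changes of -1.65 ± 0.13, -2.09 ± 0.18 and -2.17 ± 0.24 (edgeR adjusted p = 2.3e-09, 5.2e-09 and 1.9e-07).

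The 6 helicase subunits did not fall equally. Mcm7 fell by 0.89, Mcm6 by 1.34, Mcm4 by 1.61, Mcm3 by 1.64, Mcm2 by 1.65 and Mcm5 by 2.09 on the log2 scale. Pcna, the sliding clamp of the polymerases, stood at 119, 117 and 106 CPM in wt and at 57.1, 66.1 and 50.9 CPM in Sox17iECKO. Its groups did not overlap, and it kept 51.0% of the wt level (log2 fold change -0.97 ± 0.12, edgeR adjusted p = 1.3e-06). Pcna has 2 annotated pseudogenes, so its reads could be shared with them and its level is uncertain to that extent. Cdt1, the second loading factor, fell by 1.36, and Cdc45 and Gins2, which join the helicase when an origin fires, fell by 1.61 and 1.94.

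The 3 genes of deoxynucleotide synthesis fell, with a median of -2.12. Rrm2, the regulated subunit of ribonucleotide reductase, stood at 106, 91.6 and 83.2 CPM in wt and at 23.6, 23.0 and 10.8 CPM in Sox17iECKO. The third Sox17iECKO library was well below the other two, and all 3 were far below wt (log2 fold change -2.29 ± 0.22, edgeR adjusted p = 3.1e-08). Tyms, thymidylate synthase, fell by 2.12 on the log2 scale, and Rrm1, the large subunit of the reductase, by 1.35.

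The 4 transcription factors of the cycle fell, with a median of -1.36. E2f1, an activator of S phase genes, stood at 24.9, 26.9 and 30.6 CPM in wt and at 20.3, 15.3 and 16.3 CPM in Sox17iECKO. Foxm1, an activator of mitotic genes, stood at 65.6, 60.8 and 63.1 CPM in wt and at 23.7, 24.7 and 21.9 CPM in Sox17iECKO. Mybl2, the gene of B-MYB, stood at 17.5, 20.4 and 19.6 CPM in wt and at 9.0, 6.68 and 7.54 CPM in Sox17iECKO. None of the 3 overlapped between genotypes, and E2f1 came nearest to doing so. Log2 fold changes were -0.66 ± 0.16 for E2f1, -1.43 ± 0.16 for Foxm1 and -1.30 ± 0.21 for Mybl2 (edgeR adjusted p = 0.003, 3.6e-07 and 5.6e-05). E2f8, an E2F family repressor that is made as cells pass through S phase, fell by 1.83. Differences in fold change between classes were not tested.

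The 3 genes of the DNA damage checkpoint and of maintenance methylation also fell. Brca1, a factor of repair by homologous recombination, stood at 17.2, 14.8 and 16.3 CPM in wt and at 5.64, 3.89 and 5.53 CPM in Sox17iECKO. Uhrf1, which reads hemimethylated DNA behind the fork, stood at 71.0, 67.5 and 75.3 CPM in wt and at 20.7, 16.8 and 18.4 CPM in Sox17iECKO. Neither overlapped between genotypes, and Uhrf1 had the tighter libraries. Their log2 fold changes were -1.66 ± 0.16 and -1.93 ± 0.18 (edgeR adjusted p = 2.9e-08 and 1.7e-08), and Chek1, the replication checkpoint kinase, fell by 1.66.

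Mki67 and Top2a, which serve as general markers of proliferation, both fell. Mki67 (ENSMUSG00000031004, chr7:135689788-135716379, minus strand, mm10), whose protein coats mitotic chromosomes, stood at 190, 194 and 195 CPM in wt and at 61.6, 41.5 and 63.7 CPM in Sox17iECKO. Top2a (ENSMUSG00000020914, chr11:98992943-99024189, minus strand), the topoisomerase that untangles replicated DNA, stood at 188, 173 and 181 CPM in wt and at 48.5, 41.4 and 41.4 CPM in Sox17iECKO. Fitted levels in Sox17iECKO were 28.8% and 24.3% of wt, with log2 fold changes of -1.79 ± 0.16 and -2.04 ± 0.15 (edgeR adjusted p = 1.3e-08 and 4.2e-10).

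All 6 mitotic kinases and spindle checkpoint genes fell, with a median of -1.82. Plk1, the polo-like kinase, stood at 36.7, 32.3 and 31.2 CPM in wt and at 10.9, 6.01 and 9.56 CPM in Sox17iECKO. Aurkb, the kinase of the chromosomal passenger complex, stood at 36.8, 36.2 and 40.1 CPM in wt and at 8.41, 6.38 and 10.4 CPM in Sox17iECKO. The second Sox17iECKO library was the lowest for both genes, and all of them stayed far below wt (log2 fold changes -1.92 ± 0.2 and -2.15 ± 0.22, edgeR adjusted p = 1.2e-07 and 6.9e-08). Birc5, survivin of the same complex, fell by 1.62, Aurka, the centrosomal Aurora kinase, by 1.66, and the checkpoint kinases Bub1b and Bub1 by 1.73 and 2.19.

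All 7 spindle, motor and midzone genes fell, with a median of -1.93. Tpx2 (chr2:152847964-152895321, plus strand, mm10), which activates Aurora A and nucleates spindle microtubules, stood at 79.3, 66.3 and 77.3 CPM in wt and at 18.3, 15.1 and 16.5 CPM in Sox17iECKO. Its libraries were tight in Sox17iECKO and far from wt, and its adjusted p of 4.1e-11 in edgeR was the smallest of the 45 (log2 fold change -2.15 ± 0.13). Nusap1, a protein that bundles spindle microtubules, had the steepest fall of all members, to 19.0% of wt (-2.40 ± 0.16, adjusted p = 1.2e-10). The motors Kif11 and Kif23 fell by 1.86 and 1.84, Cenpe and Cenpf of the kinetochore by 1.93 and 1.52, and Prc1 of the spindle midzone by 2.06.

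The 2 partners of the anaphase-promoting complex, the ubiquitin ligase that ends mitosis, fell as well. Cdc20, its mitotic activator, stood at 43.6, 40.5 and 49.6 CPM in wt and at 17.2, 13 and 18.9 CPM in Sox17iECKO. Ube2c, its ubiquitin-conjugating enzyme, stood at 48.5, 39.3 and 45.5 CPM in wt and at 14.4, 10.4 and 7.71 CPM in Sox17iECKO. The groups were well apart for both, with log2 fold changes of -1.44 ± 0.16 and -2.03 ± 0.19 (edgeR adjusted p = 2.7e-07 and 2.3e-08).

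Markers of some other cells moved at P9 too, where 14.6% of all genes were called lower and 13.5% higher. Pericyte markers summed to 2746 to 3776 CPM in wt and 716 to 1770 CPM in Sox17iECKO, with 5 of 8 genes lower and a median log2 fold change of -0.96. Smooth muscle markers summed to 132 to 179 CPM in wt and 31.3 to 71.0 CPM in Sox17iECKO, with 3 of 4 genes lower. All 5 fibroblast markers were called, 4 lower and 1 higher (median -1.37), with sums of 206 to 275 CPM in wt and 140 to 211 CPM in Sox17iECKO. Of 5 markers of other leukocytes, 2 were lower. Astrocyte markers summed to 507 to 584 CPM in wt and 765 to 1123 CPM in Sox17iECKO, with 4 of 6 genes higher. None of the markers in these lists was at 0 in either group. Of 9 neural progenitor markers 1 was lower (median 0.47), with sums of 1821 to 1942 CPM in wt and 1296 to 2292 CPM in Sox17iECKO. Of 6 oligodendrocyte precursor markers 1 was higher, as was 1 of 8 microglia and macrophage markers. Among neuron, oligodendrocyte and red cell markers 0 were called. The endothelial identity list summed to 19054 to 19559 CPM in wt and 21620 to 26645 CPM in Sox17iECKO, with 5 of 12 genes higher and 2 lower. The first Sox17iECKO library had the lowest pericyte sum and the highest sum of the 45 genes, and without it 44 genes were still lower. When libraries were scaled to the endothelial identity genes, the median of all genes moved to -0.26 and 44 members still fell, with a median of -2.02. The part of these other cells in the fall was not tested.

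Other genes of the cycle, 143 tested in 13 lists, gave 93 lower and 9 higher at P9, beside 14.6% of all genes lower and 13.5% higher. These shares stand beside the counts of each list that follows. Differences between these lists were not tested. All 16 kinetochore and chromosomal passenger genes fell (median -1.95), among them Nuf2 at -2.37 and Spc24 at -2.53, both of the NDC80 complex, Mad2l1 of the spindle checkpoint at -1.58 and Incenp at -1.45. All 10 other mitotic kinesins fell (median -1.75), led by Kif15 at -2.29 and Kif20a at -2.13. All 6 cytokinesis genes fell (median -1.89), with Cep55, an abscission factor, at -2.32 and Racgap1 of the central spindle at -1.69.

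Of 22 genes of polymerases, clamp loading and ligation, 20 fell (median -1.03), including Pola1, the catalytic subunit of the priming polymerase, at -1.82, Pole at -1.68, Lig1 at -1.37 and Tk1, thymidine kinase, at -2.27. Of 17 genes of origin recognition and helicase activation, 13 fell (median -0.79), with Clspn at -2.23, Ticrr at -2.11, Mcm10 at -1.80 and Gmnn, the inhibitor of Cdt1, at -1.25. Of 17 condensin and cohesin genes, 10 fell (median -0.47), with Ncapg at -1.89, Ncapg2 and Smc2 each at -1.69, and Espl1, separase, at -1.76. Of 7 regulators of Cdk1 and mitotic entry, 6 fell (median -0.83), with Ccnf at -1.82, Mastl at -1.77, Cdc25c at -1.04 and Cdc25b at -0.83.

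In the anaphase-promoting complex and the MuvB core, 3 of 13 and 1 of 5 genes were called, beside 14.6% of all genes called lower and 13.5% called higher. Of the 13 subunits and regulators of the anaphase-promoting complex, Fbxo5, its inhibitor, and Anapc1 fell by 1.14 and 0.26, and Anapc2 rose by 0.30. Of the 5 MuvB genes, the core shared by repressor and activator complexes at the CHR, Rbbp4 alone passed the test, with a fall of 0.39. Of 11 genes of the retinoblastoma and E2F family, 6 fell and 1 rose: E2f2 fell by 1.28, Tfdp1 by 0.86, Rbl1 by 0.80 and E2f7 by 0.62, and the single rise was Tfdp2 at 0.27.

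Inhibitors of the cycle moved both ways. Cdkn1a, the gene of the kinase inhibitor p21, stood at 200, 209 and 210 CPM in wt and at 652, 786 and 538 CPM in Sox17iECKO. Cdkn2b, an inhibitor of Cdk4 and Cdk6, stood at 38.4, 43.8 and 40.5 CPM in wt and at 98.1, 97.0 and 88.5 CPM in Sox17iECKO. Btg2, an antiproliferative gene, stood at 222, 186 and 180 CPM in wt and at 701, 875 and 846 CPM in Sox17iECKO. For these 3 genes every Sox17iECKO library was above every wt library, with rises of 1.67 ± 0.19, 1.21 ± 0.14 and 2.04 ± 0.12 on the log2 scale (edgeR adjusted p = 3.9e-07, 3.9e-07 and 1.3e-11). Gadd45b, Cdkn1b and Ccng2 rose by 1.37, 0.70 and 0.76. Against them, Cdkn2c and Cdkn1c, also kinase inhibitors, fell by 1.21 and 0.72. In all, 3 of 7 kinase inhibitors rose and 2 fell, and 3 of 8 growth arrest genes rose. Among all genes tested, 13.5% were called higher and 14.6% lower.

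The kinases that work with D-type cyclins in G1 moved in opposite directions. Cdk4 stood at 228, 221 and 235 CPM in wt and at 114, 113 and 93.4 CPM in Sox17iECKO. Cdk6 stood at 20.3, 18.2 and 19.4 CPM in wt and at 34.9, 37.1 and 37.4 CPM in Sox17iECKO. Neither overlapped between genotypes, Cdk4 falling by 1.09 ± 0.09 (edgeR adjusted p = 6.7e-09) and Cdk6 rising by 0.91 ± 0.2 (adjusted p = 0.0011). Ccnd2 also passed the test, with a fall of 0.71 (adjusted p = 0.031).

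**Figure D3:**
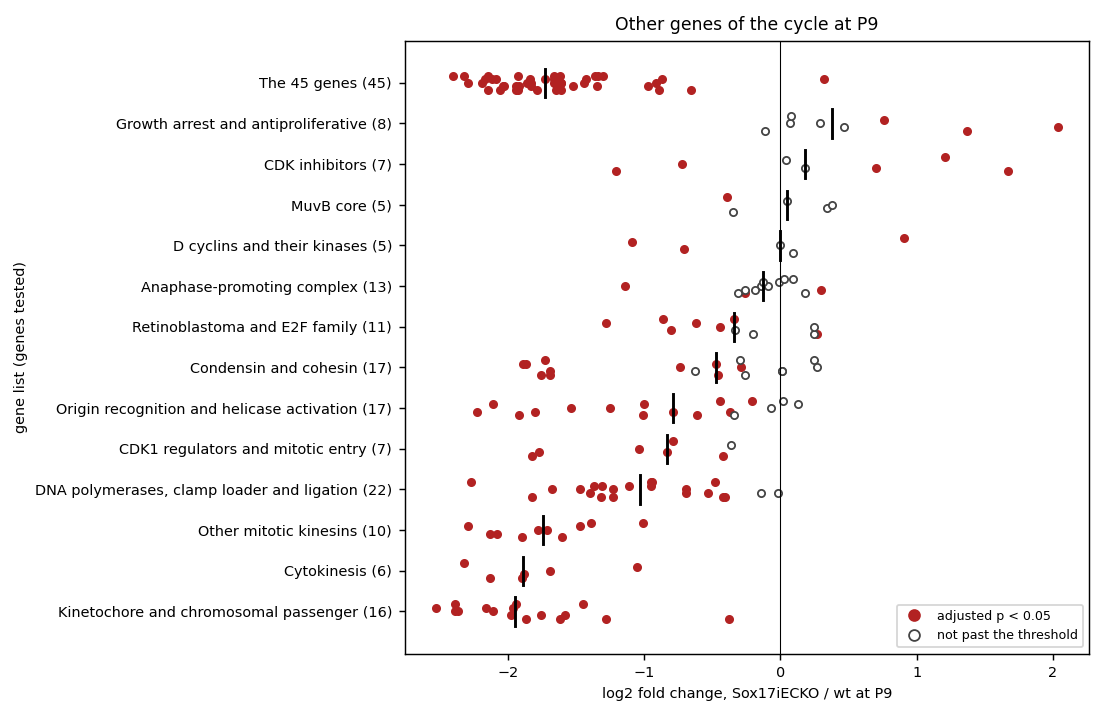
Log2 fold change of Sox17iECKO over wt at P9 (x axis) for each gene of the 45 and of the 13 further lists (y axis, number of genes tested in parentheses), with a bar at the median of each list and filled points where the adjusted p was under 0.05. The kinetochore, cytokinesis and kinesin lists have medians of -1.95, -1.89 and -1.75, and the kinase inhibitors spread from -1.21 to 1.67.

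At the other stages none of the 45 genes was called between genotypes. At E15.5 the summed level was 1785, 1955 and 1605 CPM in wt and 2159, 2065 and 1949 CPM in Sox17iECKO. At P5 it was 2348, 2867 and 2736 CPM in wt and 2745, 3202 and 2970 CPM in Sox17iECKO. In adults it was 420, 367 and 392 CPM in wt and 378, 426 and 398 CPM in Sox17iECKO. The genotypes overlapped in these sums at all 3 stages.

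At E15.5, edgeR called 0 genes, with 9 at an unadjusted p under 0.05, and DESeq2 and limma also called 0, with 8 and 7 at that level. Over all genes, 0.548% were called at this stage. The differences lay above 0 for 41 of the 45, with a median of 0.23 against 0.01 for all genes and a range of -0.16 to 0.52, and the smallest adjusted p was 0.26. All 3 Sox17iECKO libraries lay above all wt libraries for 12 members and below them for 0, which held for 4.99% and 3.36% of all genes. Bub1b, for example, stood at 36.2, 46.9 and 37.8 CPM in wt and at 55.7, 59.0 and 46.1 CPM in Sox17iECKO, ranges that overlapped by a narrow margin. In 34 of the 45 genes the third wt library was the lowest of its group, and it also had the lowest pericyte marker sum of the wt libraries, 654 CPM against 1481 and 1947 CPM. The third Sox17iECKO library was likewise the lowest of its group in 32 of the 45 genes and had its lowest pericyte sum, 749 CPM. At this stage each wt library deviated most like the Sox17iECKO library of the same number (correlations of 0.065, 0.368 and 0.486). The fit did not pair the libraries, and pairing within this stage was not tested. Red cell markers summed to 2860 to 3765 CPM in wt and 772 to 1430 CPM in Sox17iECKO at this stage, with 5 of 9 genes lower. The part of either marker list in these differences was not tested.

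At P5, edgeR called 0 genes, with 8 at an unadjusted p under 0.05, and DESeq2 and limma called 0, with 8 and 3 at that level, beside 0.53% of all genes called by edgeR. The differences lay above 0 for 37 members, with a median of 0.23 and a range of -0.16 to 0.42, and the smallest adjusted p was 0.25. It belonged to Cdk1, which stood at 81.2, 85.6 and 90.0 CPM in wt and at 107, 124 and 98.7 CPM in Sox17iECKO (log2 fold change 0.36 ± 0.11). All Sox17iECKO libraries lay above all wt libraries for 13 members and below them for 0, against 7.8% and 7.23% of all genes. The first wt library was the lowest of its group in 38 of the 45. In these animals Sox17 stood at 6.05% of the wt level, and Cdkn1a stood at 170, 172 and 144 CPM in wt and 434, 282 and 398 CPM in Sox17iECKO. Of the 143 further genes of the cycle, 3 were higher and 1 lower at P5.

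In adults, edgeR called 0 genes, with 5 at an unadjusted p under 0.05, and DESeq2 and limma called 0, with 3 and 7 at that level. Only 0.0874% of all genes were called by edgeR at this stage. The median difference was 0.06, 27 of the 45 differences lay above 0, and the range was -0.41 to 0.69. Several members had few counts here, which limits what could be detected. Over 3 libraries Ccne2 had 31 counts in wt and 56 in Sox17iECKO, and Bub1 had 45 and 35. The Sox17iECKO libraries lay wholly below wt for 1 member and wholly above for 2, near the 5.79% and 5.09% of all genes.

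The genotype effect itself differed between stages. The tamoxifen schedule or the time since tamoxifen also differed between stages, and the kit between P5 and P9. These cannot be told apart from age. An interaction test across the 4 stages called 44 of the 45 genes, the exception being Cdk2 (edgeR adjusted p = 0.14), beside 13.5% of all genes. The effect at P9 was lower than that at P5 for 43 genes, with a median difference of -1.96 on the log2 scale, beside 8.44% of all genes. Tpx2 (-2.38, adjusted p = 6.3e-09), Nusap1 (-2.62) and Ccna2 (-2.74) led by adjusted p. The exceptions were Cdk2 (0.38, adjusted p = 0.097) and E2f1 (-0.55, adjusted p = 0.099). Against the adult effect, that at P9 was lower for 44 genes (median -1.78), beside 6.72% of all genes, led by Top2a (-2.36, adjusted p = 1.2e-07), Ccna2 (-2.88) and Bub1b (-2.07). These differences share the P9 libraries. The loss of Sox17 itself was weaker in adults, at 17.8% of wt against 7.07% at P9 (difference in effect -1.33, edgeR adjusted p = 0.013). It was also uneven, with 57.3, 22.5 and 78.2 CPM of Sox17 in the adult Sox17iECKO libraries, and its part was not tested.

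**Figure D4:**
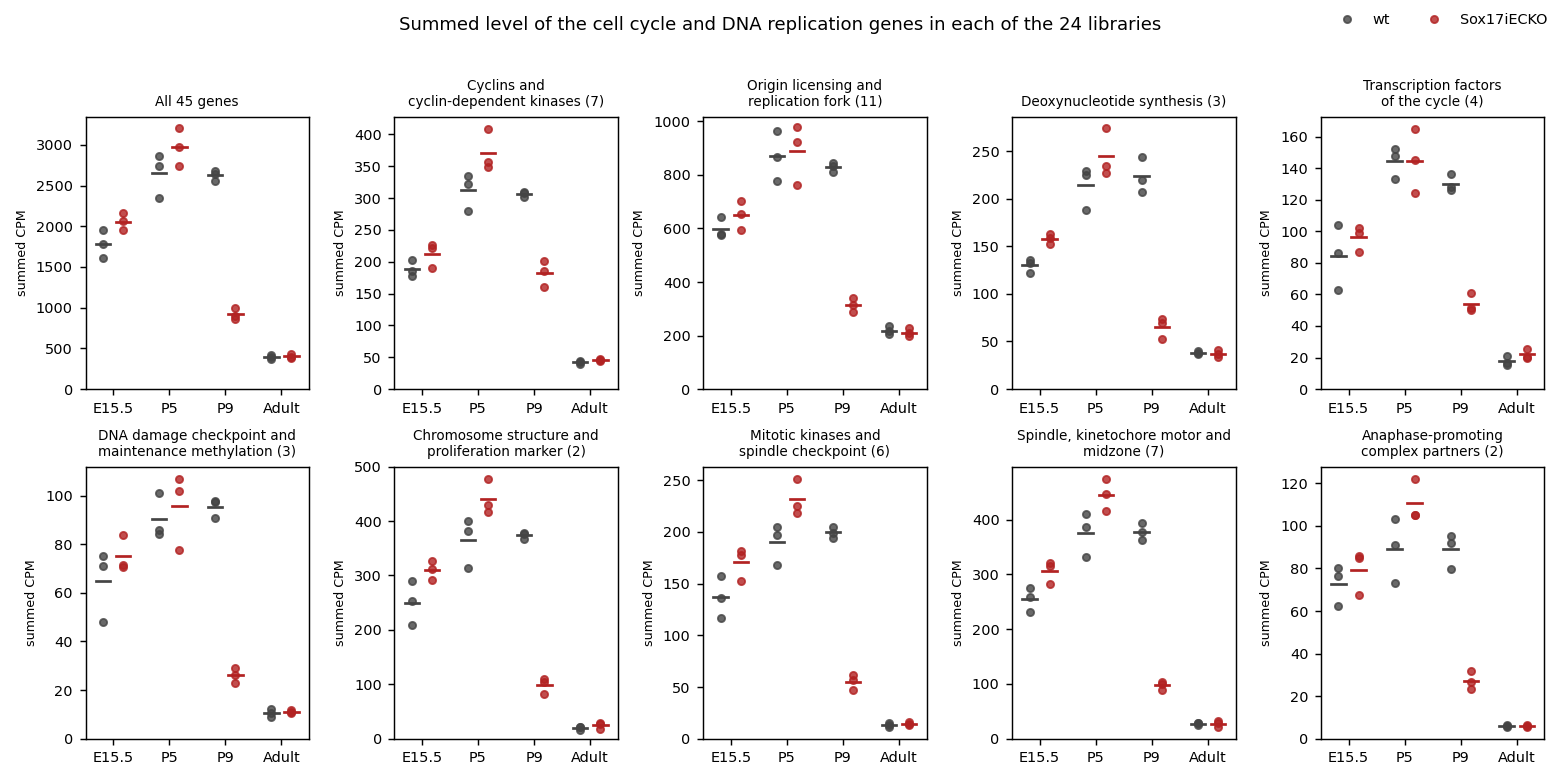
Summed CPM (y axis) of all 45 genes and of each role group in each of the 24 libraries, by stage (x axis), with points for libraries and a bar for the mean of 3. The P9 Sox17iECKO libraries (865 to 996 CPM for all 45 genes) lie between the P9 wt libraries (2554 to 2681 CPM) and the adults (367 to 426 CPM) in the sum of all 45.

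On the TMM scale the summed level of these genes in wt was 1782 ± 175 CPM at E15.5, 2650 ± 270 at P5, 2625 ± 64.8 at P9 and 393 ± 26.2 in adults (mean ± SD, n = 3 each). The order of E15.5 against the later stages depends on that scale, as given next.

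From E15.5 to P5, 34 genes were higher and 1 was lower on the TMM scale, with a median of 0.54, beside 36.2% of all genes higher and 30.4% lower. Cdk2 rose by 1.20 (edgeR adjusted p = 2.8e-09), Pcna by 1.03 and Cdk1 by 0.79. Mcm7 went the other way, from 108, 117 and 124 CPM to 69.6, 85.5 and 95.5 CPM (-0.48, adjusted p = 0.0055), and its groups did not overlap. This direction depends on the scaling. The endothelial identity list summed to 4975 to 6283 CPM at E15.5 and 17353 to 19857 CPM at P5, and when libraries were scaled to it all 45 genes were lower at P5, with the median of all genes at -1.59 and that of the members at -1.20. Pericyte markers moved up in this step, all 8 of them (median 1.70), and all 7 neuron markers moved down (median -2.41), with their part not tested. Under all 4 scalings the same number of members, 44, lay above the median of all genes.

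From P5 to P9 in wt, edgeR called 0 members, with 2 at an unadjusted p under 0.05, DESeq2 and limma called 0, with 3 and 2 at that level, and 5.12% of all genes were called by edgeR. The median was 0.01 and the smallest adjusted p 0.13, that of Mcm4 (-0.29 ± 0.11). A fit of the 6 libraries of these groups alone called 3 members lower, and the share of all genes called in it was not counted.

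From P9 to adult all 45 genes were lower in wt, with a median of -3.36, beside 30.3% of all genes. Cdk1 fell from 89.5, 89.1 and 88.5 CPM to 2.36, 1.64 and 1.73 CPM (-5.46 ± 0.16, edgeR adjusted p = 2.5e-17), the steepest change in the set. Tpx2 fell by 4.15 and Cenpf by 3.87. The mildest change was that of Pcna, from 119, 117 and 106 CPM to 55.6, 48.6 and 57.2 CPM (-1.08). The endothelial identity list itself went from sums of 19054 to 19559 CPM to 12825 to 13666 CPM, with 9 of 12 genes lower and 2 higher. Scaled to these genes, all 45 members stayed lower, with a median of -2.83 beside 0.53 for all genes. Of the 143 further genes of the cycle, 115 were lower and 6 higher. Markers of other cells moved with these falls. All 8 pericyte markers were lower (median -2.99), from sums of 2746 to 3776 CPM to 480 to 592 CPM, as were 4 of 5 fibroblast markers. All 6 oligodendrocyte and all 8 microglia and macrophage markers were higher in adults (medians 3.86 and 3.91). Of 4 smooth muscle markers, 3 were higher and 1 was lower. The part of these cells in the falls was not tested.

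In Sox17iECKO the level was high at P5 and had fallen by P9. From E15.5 to P5, 34 genes were higher and 1, Mcm7, was lower (-0.41, edgeR adjusted p = 0.015), with a median of 0.52, beside 37.4% and 31.4% of all genes. Cdk2 (1.30), Pcna (1.19) and Cdk1 (0.83) led again, and scaling to endothelial identity genes turned all 45 to lower here too. From P5 to P9, 44 genes were lower, with a median of -1.92, beside 17% of all genes, and Cdk2 was not called (0.22, adjusted p = 0.13). Nusap1 fell from 36.2, 45.2 and 43.2 CPM to 5.89, 6.68 and 5.3 CPM (-2.78, edgeR adjusted p = 2e-11), Tpx2 by 2.27 and Mcm4 by 1.97. Over the same step all 8 pericyte markers (median -1.28, sums of 3262 to 5186 CPM at P5 and 716 to 1770 CPM at P9), all 4 smooth muscle markers and 7 of 8 microglia and macrophage markers were lower. All 6 oligodendrocyte markers were higher. Over this step in wt, 6 of 8 microglia and macrophage markers and 3 of 4 smooth muscle markers were also lower. All 6 oligodendrocyte markers were higher in wt too, and 0 of 8 pericyte markers were called (median -0.49), beside 5.12% of all genes called. The part of these cells was not tested. From P9 to adult, 42 genes fell further, with a median of -1.59, beside 29.2% of all genes, led by Cdk1 (-4.36, edgeR adjusted p = 2.9e-16), Cenpf (-2.28) and Tpx2 (-2.08). In that step 7 of 8 pericyte markers were lower, and all 6 oligodendrocyte and all 8 microglia and macrophage markers were higher, with their part not tested. The genotype and stage comparisons share libraries with one another.

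The P9 Sox17iECKO levels were set beside those of adult Sox17iECKO animals by role. Role medians differed, single genes crossed them, and no test was made of this. The ratio of mean CPM, P9 over adult, had a median of 1.74 for licensing and fork genes, from 0.882 for Mcm4 to 3.5 for Cdc6. The 3 genes of deoxynucleotide synthesis stood at 1.17 (Tyms), 1.45 (Rrm1) and 4.44 (Rrm2). The median was 2.43 for checkpoint and methylation genes, 2.67 for transcription factors and 3.73 for spindle genes. It was 4.0 for cyclins and their kinases, 4.06 for Mki67 and Top2a, 4.62 for mitotic kinases and 5.96 for the partners of the anaphase-promoting complex. Several mitotic genes lay below Cdc6 and Rrm2, among them Kif23 at 2.46 and Plk1 at 2.5.

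Mcm4, Pcna and Tyms showed no called difference between P9 and adult Sox17iECKO. Mcm4 stood at 25.2, 23.0 and 19.5 CPM at P9 and at 22.9, 25.7 and 27.8 CPM in adults (0.18 ± 0.12, edgeR adjusted p = 0.19). Pcna stood at 57.1, 66.1 and 50.9 CPM at P9 and at 48.3, 57.4 and 50.0 CPM in adults (-0.16 ± 0.12, adjusted p = 0.26). Tyms stood at 6.39, 5.89 and 7.2 CPM at P9 and at 5.14, 5.97 and 5.49 CPM in adults (-0.23 ± 0.17, adjusted p = 0.25). The libraries of the 2 stages overlapped for each of these genes, which does not show that their levels were equal. Cdk1 was the opposite case, at 51.6, 52.7 and 37.6 CPM at P9 and 2.02, 2.41 and 2.12 CPM in adults, a ratio of 21.7 with no overlap. The classes also differed within wt: the adult wt median was 17.9% of the P9 wt level for licensing and fork genes, 6.2% for mitotic kinases and 4.27% for cyclins and their kinases. The median P9 Sox17iECKO level was between 22.5% and 38.6% of P9 wt in every role group. Scaled to endothelial identity genes, 27 members were lower and 6 higher in adult than in P9 Sox17iECKO, with a median of -0.72. In that fit the median of all genes was 0.87, and 44 members lay below it. The share of all genes called was not counted there.

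**Figure D5:**
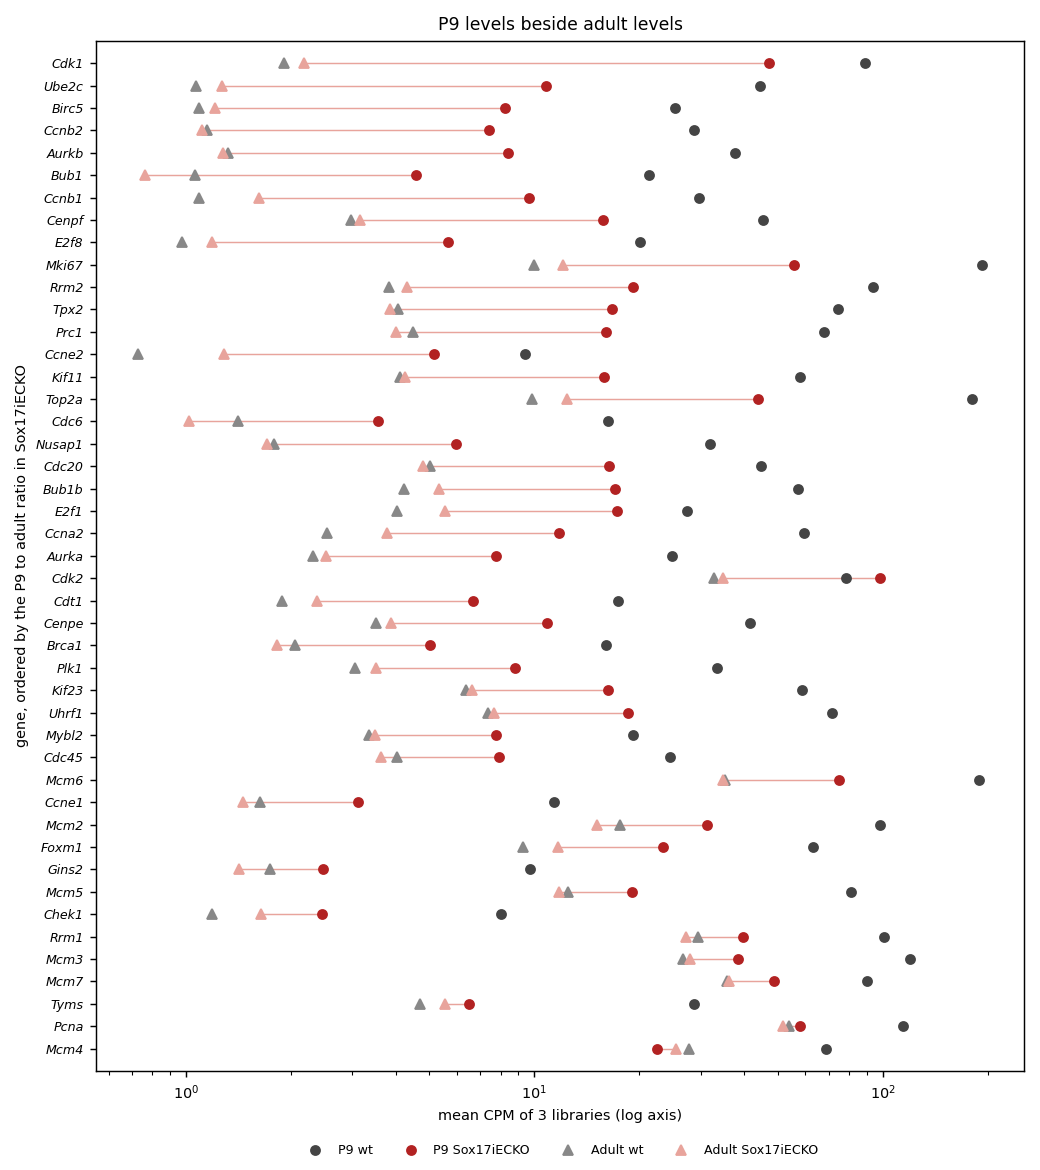
Mean CPM of 3 libraries (log x axis) for each of the 45 genes (y axis, ordered by the ratio of P9 to adult in Sox17iECKO), with circles for P9, triangles for adults and a line joining P9 and adult Sox17iECKO. The line is longest for Cdk1 (ratio 21.7) and short or reversed for Tyms, Pcna and Mcm4 (ratio 0.882).

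Levels of different genes can be set side by side only per transcript length, for which the authors' TPM values were used. In P9 wt the highest were Pcna at 153 ± 6.44 TPM, Mcm6 at 131 ± 4.89, Rrm2 at 109 ± 11.6, Cdk2 at 104 ± 6.24 and Mcm3 at 103 ± 6.67 (mean ± SD, n = 3). The lowest were Brca1 at 6.07 ± 0.466 TPM and Chek1 at 5.54 ± 0.953, which overlap within their spread, as do Rrm2, Cdk2 and Mcm3. In P9 Sox17iECKO Cdk2 stood first at 124 ± 6.4 TPM, followed by Pcna at 74.1 ± 4.6, Mcm6 at 48.9 ± 6.9 and Cdk1 at 42.0 ± 4.96, the last 2 of which lie within their joint spread. In adult wt Pcna led at 77.7 ± 6.16 TPM, ahead of Cdk2 at 46.8 ± 4.25 and Mcm7 at 28.0 ± 2.87.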

How the data were processed

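Polyadenylated RNA of CD31-selected brain cells was sequenced from 24 mouse libraries, 3 in each of 8 groups, as strand-specific libraries on an Ion Proton, per the labels' protocols, which call the replicates independent. The authors deposited raw read counts per gene on 1 strand, which were the values tested. The TPM column, which the authors scaled by gene length and library, served only to compare levels between genes. Trim Galore 0.4.1, FastQC, STAR 2.5.3a, SAMtools 1.5 and build mm10 are named per the submitters' processing notes, without their roles. The annotation release is not given in the sources used here.

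The filter kept 17159 genes whose mean reached 10 counts in any group. With TMM factors of 0.861 to 1.14, the counts were fitted with edgeR 4.0.16 (quasi-likelihood, 16 residual degrees of freedom, prior count 2, R 4.3.3) with 1 mean per group over all 24 libraries, which share 1 estimate of the spread. Two-sided p-values were adjusted by Benjamini-Hochberg over all genes tested, with calls at an adjusted p under 0.05. SE is the standard error of a log2 fold change. The script was tested on simulated data. Depth was 12301779 to 19830600 counts per library.

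The members, the gene lists and the motifs were chosen with earlier results of these data known. Values in every library were given for 22 members at P9, all members could be named, other comparisons named up to 4 called genes or the 3 with the smallest adjusted p and those moving against the majority, and each further list up to 4 genes by adjusted p at P9. Cdk2 at P9 and other values by library were shown in addition, chosen after their values were seen. Deviations of same-numbered libraries of the 2 genotypes correlated at 0.065, 0.368 and 0.486 at E15.5, where each library matched its own number best, and between -0.0812 and 0.0912 at the other stages. Since not every pair passed 0.1 at any stage, the numbers were not taken to pair the libraries. Alternatives were other scalings, DESeq2 1.42.0, limma 3.58.1, no filter, a fold threshold, fewer libraries and a replicate block. Figures were drawn with matplotlib 3.10.9 in Python 3.11.15.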

Additional observations from a re-analysis of the deposited data

Results flagged for a closer look

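The effect of the Sox17iECKO genotype differed between stages for 44 of the 45 genes by the interaction test in edgeR, and each of these was marked for that difference. The values below are the log2 effect at P9 minus that at P5, both against the wt libraries of their own stage, so a negative value means a lower effect at P9. Age, time since tamoxifen and kit all changed between P5 and P9 and cannot be told apart here. Among cyclins and their kinases it was -2.74 for Ccna2, -1.95 for Ccnb1, -2.30 for Ccnb2, -1.96 for Ccne1, -1.10 for Ccne2 and -1.27 for Cdk1. For the helicase subunits it was -1.55 for Mcm2, -1.63 for Mcm3, -1.68 for Mcm4, -2.07 for Mcm5, -1.43 for Mcm6 and -0.96 for Mcm7. Among the other licensing and fork genes it was -2.20 for Cdc6, -1.20 for Cdt1, -1.78 for Cdc45, -1.85 for Gins2 and -1.06 for Pcna. For deoxynucleotide synthesis it was -1.48 for Rrm1, -2.53 for Rrm2 and -2.43 for Tyms.

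Among transcription factors the difference was -1.44 for Foxm1, -1.22 for Mybl2, -0.55 for E2f1 and -2.06 for E2f8, and that of E2f1 did not pass the test of P9 against P5 alone. Brca1, Chek1 and Uhrf1 had -1.92, -1.72 and -1.97, and Mki67 and Top2a had -2.05 and -2.32. For mitotic kinases and the spindle checkpoint it was -1.99 for Aurka, -2.32 for Aurkb, -2.25 for Plk1, -2.58 for Bub1, -1.96 for Bub1b and -1.93 for Birc5. For the spindle it was -2.38 for Tpx2, -2.22 for Cenpe, -1.71 for Cenpf, -2.10 for Kif11, -2.11 for Kif23, -2.62 for Nusap1 and -2.30 for Prc1. The partners of the anaphase-promoting complex, Ube2c and Cdc20, had -2.32 and -1.77.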

How the results depend on the processing

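The count of 44 genes lower in Sox17iECKO at P9 was 44 under every scaling, DESeq2, limma, no filter and the fit of the compared libraries alone, 43 to 44 when single libraries were left out and 39 with a fold of at least 2 added, and the members' median ran from -1.67 to -2.02 over the scalings. The rise of Cdk2 at P9 was weaker: 0 members were higher under total counts, endothelial identity scaling, no filter, the compared libraries alone or the fold threshold, and 0 to 1 without single libraries. From E15.5 to P5 in wt, endothelial scaling gave 45 lower and 0 higher, total counts 22 higher, the fold threshold 0 lower and 3 higher, and single libraries left out 27 to 36 higher. In Sox17iECKO the same step gave 45 lower and 0 higher under endothelial scaling, 18 higher under total counts, 0 lower and 2 higher with the fold threshold, 0 lower without both E15.5 libraries numbered 3, and 0 to 1 lower and 32 to 35 higher without single libraries. Under endothelial scaling Cdk1, Cdk2 and Pcna changed sign in that step, to -0.95, -0.53 and -0.70 in wt and -0.90, -0.43 and -0.54 in Sox17iECKO, and Anapc2 at P9 went to 0 on the log2 scale (adjusted p = 0.99). For wt P9 against P5, 3 members were lower in a fit of those libraries alone. Of adult against P9 Sox17iECKO, 1 member was higher under total counts and 6 under endothelial scaling, which left 27 lower. Left-out libraries gave 43 to 44 for the interaction, 42 to 44 for P9 against P5 effects and 0 to 0 for the stages without calls. The replicate block gave each library number 1 effect shared by all stages, so it does not test pairing within a stage. With it, 44 members were lower at P9, 44 passed the interaction and 33 were higher in wt at P5 than at E15.5. Causes of these changes were not tested, and shares of all genes called were counted for the main fit alone. In adults several members had few counts, which limits what could be detected there.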
